A study of Mus musculus with 17 samples.

Results

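Adipose tissue macrophages of mice on a high-fat diet were compared with liver Kupffer cells of mice on the same diet, across all genes of a deposited RNA sequencing count table. The 10 libraries compared, of 17 in the series, were chosen by the source named in the labels. ATM HFD (n = 5, ATM below) are cells of the adipose tissue sorted on F4/80 and CD64, and HFD KC (n = 5, KC below) are cells of the liver gated for high F4/80 and for TIM4. All mice of both groups were of the strain Cx3Cr1-GFP/WT on a C57BL/6 background, which carries a green fluorescent reporter in place of 1 copy of the chemokine receptor gene Cx3cr1. Both groups ate a high fat, high sucrose diet (Research Diets D12492) for 16 weeks, and no adipose library of mice on standard chow was analysed here. The other 7 libraries are liver macrophages titled frac_pos on the same diet (Cx3cr1pos HFD, n = 4) and Kupffer cells of mice on standard chow (STD KC, n = 3). They entered the fit, and their levels are given where they add a reference point. The titles name the libraries hfd1, hfd2, hf1, hf2 and hf3 in both groups, and single values follow that order. All 5 ATM libraries and the KC libraries hfd1 and hfd2 are titled frac_neg, while the KC libraries hf1, hf2 and hf3 are titled cd68. No label says that the libraries of a group come from separate animals, so p-values measure only the spread between these samples.

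Kupffer cells are the resident macrophages of the liver sinusoids. They take up particles, bacteria and worn red cells from the blood, and their identity is set by signals from neighbouring endothelial, stellate and liver cells that act through the receptor LXR alpha, SMAD4 and the ID factors. Macrophages of obese fat are a mixture of resident cells along vessels and of lipid-laden cells, many from blood monocytes, that gather around dying adipocytes and carry TREM2, CD9 and lipid droplet genes. Tissue and sort gate changed together between the groups, so their parts cannot be told apart. In bulk samples such as these, fewer cells of a type and less RNA per cell cannot be told apart.

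Means are given ± SD with n = 5 in each group, and fold changes are log2 values, ATM minus KC, ± SE. Total counts lay between 26275527 and 34910064 in ATM and between 32883408 and 37809845 in KC. At these depths 3 counts in 1 library correspond to 0.0752 to 0.112 CPM, a unit that scales counts to the library total times a TMM factor, which offsets differences in RNA composition. The first principal component of log2(CPM + 1) over the 10 libraries took 75.1% of the variance and set ATM apart from KC. The second took 7.38% and set the KC libraries hf1 and hf2 apart from hfd1, hfd2 and hf3. Mitochondrial transcripts took 0.598 to 1.36% of the counts in ATM and 0.374 to 0.640% in KC.

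Of the genes of the sort, Timd4 and Adgre1 ran with the gates, while Fcgr1 and Cd68 ran against the gate or title that names them. Timd4, which encodes TIM4, stood at 6.34, 7.87, 3.99, 5.39 and 5.19 CPM in ATM, against 1655, 402, 1381, 1045 and 1178 CPM in KC. The groups did not overlap, and KC hfd2 was the lowest KC library. Adgre1, which encodes F4/80, averaged 3289 ± 829.9 CPM in ATM and 4949.7 ± 1182 CPM in KC. Fcgr1, which encodes CD64, averaged 244 ± 90.8 CPM in ATM and 398 ± 67.9 CPM in KC. Both were lower in ATM (log2 fold change -0.59 ± 0.20 with adjusted p = 0.0230 for Adgre1 and -0.71 ± 0.20 with adjusted p = 0.00677 for Fcgr1), and CD64 was part of the ATM gate. The groups overlapped for both genes. Without KC hfd1, ATM hf1, ATM hf2 or ATM hf3, 1 at a time, Adgre1 had an adjusted p of 0.0822, 0.0558, 0.0516 or 0.0617. Cd68 averaged 3605 ± 229 CPM in ATM and 2407 ± 338 CPM in KC (log2 fold change 0.58 ± 0.10, adjusted p = 1.54e-04). Cx3cr1 averaged 17.3 ± 7.59 CPM in ATM and 9.70 ± 4.97 CPM in KC, while Cx3cr1pos HFD held 398 ± 71.8 CPM. Its groups overlapped, and the higher level in ATM (log2 fold change 0.84 ± 0.33, adjusted p = 0.0441) was not called without any 1 of 6 of the 10 libraries, with an adjusted p between 0.0611 and 0.138. Of 12 markers shared by macrophages, 4 were higher and 5 lower in ATM, and 5 and 4 without ATM hf3. Lyz2, which encodes lysozyme, averaged 9479 ± 1467 CPM in ATM and 6050 ± 1190.5 CPM in KC. Csf1r, the receptor of the growth factor CSF1, averaged 1936 ± 333 CPM in ATM and 4990.4 ± 736 CPM in KC. Their summed level covered 23290 to 26850 CPM in ATM and 23230 to 29090 CPM in KC.

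Markers of other cells differed between the groups and within KC. The 13 liver sinusoidal endothelial markers summed to 432, 400.3, 847, 404 and 292 CPM in ATM, against 6697, 3180, 1906, 1972 and 7023 CPM in KC. The KC libraries hfd1 and hf3 held the most, and every KC library lay above every ATM library. Of the 13, 12 were lower in ATM. Dnase1l3 averaged 31.7 ± 12.2 CPM in ATM and 1916 ± 1189 CPM in KC, and Stab2 averaged 49.3 ± 10.4 CPM in ATM and 531 ± 108 CPM in KC. Fcgr2b, an Fc receptor that macrophages share, averaged 333 ± 215 CPM in ATM and 183 ± 134 CPM in KC and was not called. Without KC hf3 it was called higher, with a log2 fold change of 1.25 against 0.87 with all libraries. Without ATM hf1, the highest ATM library, it was 0.41 (adjusted p = 0.451), and without both KC hfd1 and hf3 it was 1.92 and called. The 20 hepatocyte markers summed to 188 to 261 CPM in ATM and 316 to 902 CPM in KC, and 19 of them were lower in ATM. Most of the ATM sum was Trf, the transferrin gene, and without it the others summed to 12.7 to 37.02 CPM in ATM and 174.5 to 817 CPM in KC. Alb, the albumin gene, averaged 0.550 ± 0.186 CPM in ATM and 104 ± 74.1 CPM in KC. The 12 adipose stromal and fibroblast markers ran the other way, with sums of 869 to 1570 CPM in ATM and 123 to 421 CPM in KC, and 8 were higher and 1 lower in ATM. Most of the ATM sum was Gsn, the gelsolin gene, which averaged 963 ± 216 CPM in ATM and 121 ± 40.5 CPM in KC. The sums of the list averaged 1186 CPM in ATM and 255 CPM in KC, so they largely follow this gene. Dcn, which encodes decorin, averaged 97.97 ± 28.5 CPM in ATM and 22.2 ± 6.52 CPM in KC. The 10 adipocyte markers summed to 19.4 to 62.9 CPM in ATM and 27.5 to 73.1 CPM in KC, and the groups overlapped. Of these markers 5 passed the filter on low counts, 3 higher and 1 lower in ATM. Lep, the leptin gene, stood at 2.06, 2.60, 1.11, 5.84 and 1.48 CPM in ATM and had no count in any KC library, which allows up to 0.0941 CPM in a library. The part of RNA or cells carried over from the surrounding tissue was not tested.

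**Figure D1:**
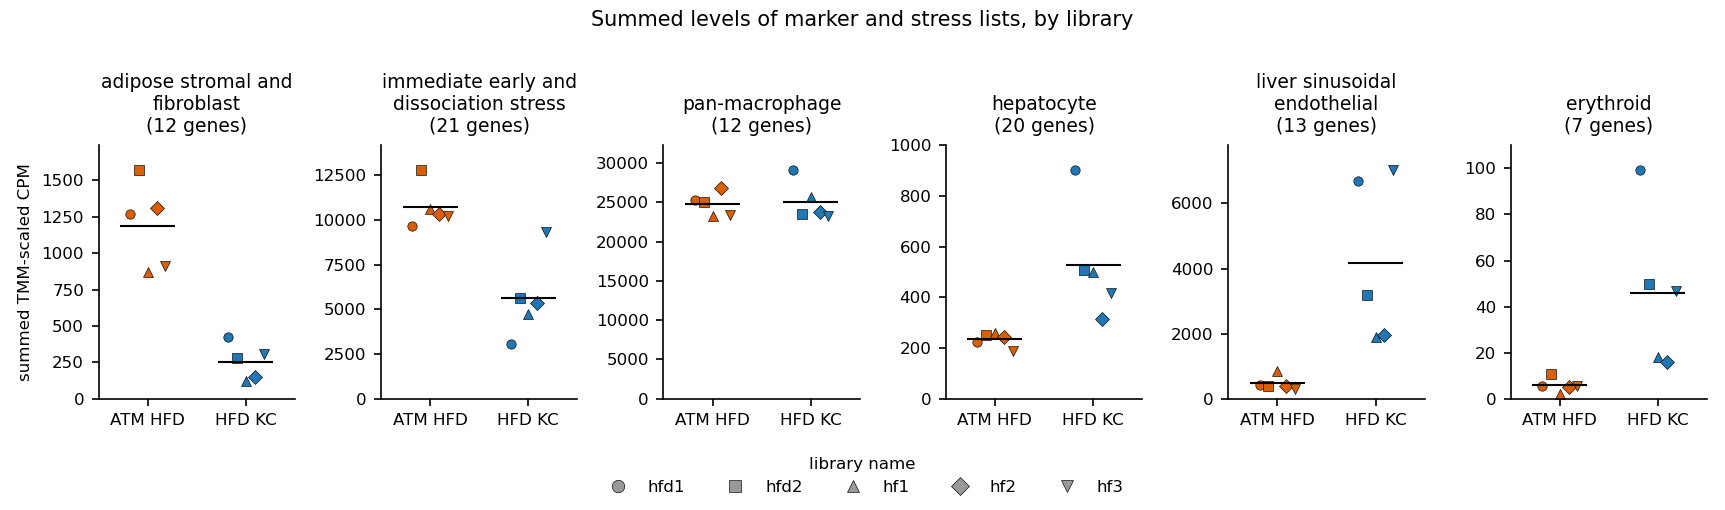
Summed TMM-scaled CPM (y axis, from 0) of 6 gene lists in each of the 5 ATM HFD and 5 HFD KC libraries, with 1 symbol per library name and a bar at the group mean. Stromal and immediate early sums were higher in ATM, endothelial, hepatocyte and erythroid sums were higher in KC, and pan-macrophage sums overlapped.

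Of 15285 genes tested, 7496 (49%) differed between ATM and KC at an adjusted p under 0.05 in edgeR's quasi-likelihood test. In ATM 3642 genes (23.8%) were higher and 3854 (25.2%) were lower, and 2100 (13.7%) and 2251 (14.7%) of these differed at least 2-fold. Gene lists are read against these shares and against the median log2 fold change over all genes, which was 0.000917. Within the names hf (3 against 3 libraries) 5968 genes were called, and within the names hfd (2 against 2, all titled frac_neg) 4597, and no gene was called in the opposite direction. A test of whether the fold change differed between hf and hfd names called 0 genes (0%) in edgeR, with 487 genes at an unadjusted p under 0.05. With 3 and 2 library names a group, 0 calls do not show that the fold changes were alike. In KC the names also go with the titles, cd68 for hf and frac_neg for hfd, while all ATM libraries are titled frac_neg. The test therefore cannot tell names from titles. Without the KC library hf3 the test called 9 genes. Leaving out the KC libraries hfd1 and hf3, an alternative chosen after their endothelial marker sums were seen, left 6591 calls.

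**Figure D2:**
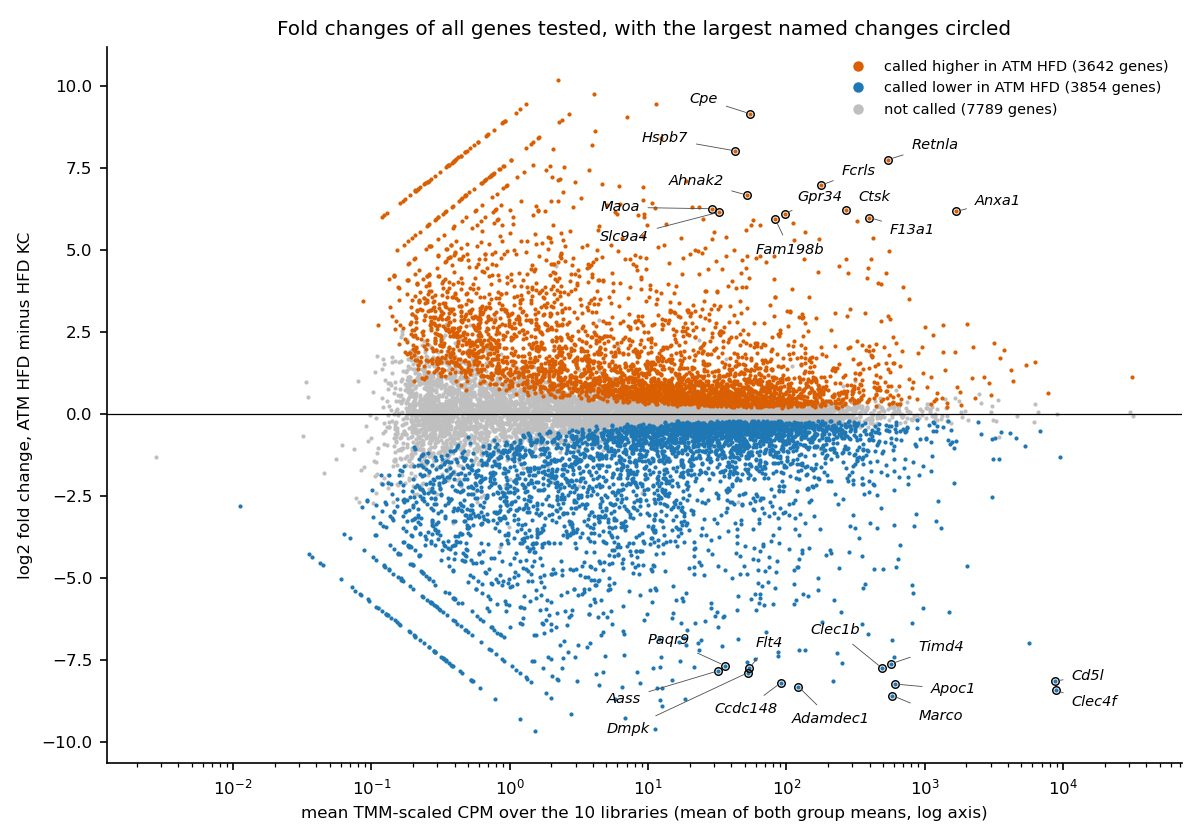
Log2 fold change, ATM HFD minus HFD KC (y axis), against the mean TMM-scaled CPM of both groups (x axis, log scale) for the 15285 genes tested, coloured by call. The circled genes are the 12 largest rises and 12 largest falls by the naming rule, and calls of both signs lie across most of the range of expression.

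Kupffer cell identity genes were almost all lower in ATM. Of 20 genes of this list, chosen like all others with earlier results of these data known, 19 were lower and 1 was higher, with a median log2 fold change of -6.78. Clec4f, a galactose-binding lectin of Kupffer cells, stood at 49.8, 48.5, 50.8, 54.3 and 52.2 CPM in ATM, against 16880, 13681, 20222, 22488 and 14815 CPM in KC. Cd5l, a secreted scavenger-type protein, stood at 64.98, 55.8, 72.5, 58.7 and 58.6 CPM in ATM, against 18356, 15527, 19848, 19820 and 14232 CPM in KC. Clec1b, the receptor of podoplanin, stood at 4.76, 4.42, 3.83, 4.67 and 4.99 CPM in ATM, against 919, 879.9, 972, 1217 and 914 CPM in KC. The ATM libraries lay close together and far below every KC library for all 3 (log2 fold change -8.43 ± 0.38 with adjusted p = 2.59e-11 for Clec4f, -8.14 ± 0.26 with adjusted p = 4.66e-13 for Cd5l and -7.75 ± 0.22 with adjusted p = 1.54e-13 for Clec1b). Marco, a scavenger receptor for bacteria, averaged 3.03 ± 0.585 CPM in ATM and 1165 ± 721 CPM in KC (log2 fold change -8.59 ± 0.53, adjusted p = 1.04e-09). Timd4, a receptor for phosphatidylserine, was part of the KC gate (log2 fold change -7.62 ± 0.36, adjusted p = 5.07e-11). Cd207, the langerin gene, averaged 1.85 ± 0.306 CPM in ATM and 272 ± 113 CPM in KC and stood at 607 ± 123 CPM in Cx3cr1pos HFD. Cdh5, better known from endothelium, averaged 4.37 ± 1.68 CPM in ATM and 359 ± 52.7 CPM in KC. Its values in KC hf1 and hf2, the libraries with the lowest endothelial sums, were 346 and 378 CPM, against 438 and 335 CPM in hfd1 and hf3. The part of endothelial RNA in the level of Cdh5 was not tested. The exception was Cbr2, a carbonyl reductase. It stood at 41.2, 82.6, 103, 77.8 and 54.9 CPM in ATM, against 2.23, 1.10, 0.995, 1.44 and 2.74 CPM in KC. All ATM libraries lay above all KC libraries (log2 fold change 5.39 ± 0.35, adjusted p = 1.66e-09).

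A list of transcription factors tied to the Kupffer cell lineage split, and it also holds factors better known from other macrophages. Of 17 tested, 11 were lower and 5 higher in ATM. Nr1h3, which encodes LXR alpha, stood at 113, 106, 82.7, 117 and 104 CPM in ATM, against 1195, 915, 1263, 1168 and 982 CPM in KC. Id3, an inhibitor of helix-loop-helix factors, stood at 49.8, 48.4, 65.2, 40.5 and 30.6 CPM in ATM, against 1002, 916, 1244, 1182 and 1599 CPM in KC. No KC library of these genes came near an ATM library. Id1, a relative of Id3, averaged 1.89 ± 0.453 CPM in ATM and 119 ± 24.7 CPM in KC (log2 fold change -3.40 ± 0.14 with adjusted p = 1.10e-11 for Nr1h3, -4.66 ± 0.22 with adjusted p = 5.04e-11 for Id3 and -5.96 ± 0.20 with adjusted p = 8.29e-13 for Id1). Irf7, which drives interferon genes, averaged 57.2 ± 21.6 CPM in ATM and 1223 ± 72.2 CPM in KC. Among the factors that were higher in ATM, Bhlhe41, known from alveolar macrophages, stood at 67.5, 58.7, 34.99, 40.8 and 43.2 CPM in ATM, against 2.74, 6.34, 1.96, 2.29 and 4.71 CPM in KC (log2 fold change 3.76 ± 0.32, adjusted p = 4.27e-08). Klf4 averaged 164 ± 48.2 CPM in ATM and 46.2 ± 16.5 CPM in KC. Pparg, the receptor that drives fat storage genes, averaged 73.5 ± 18.1 CPM in ATM and 37.3 ± 19.2 CPM in KC and overlapped between groups (log2 fold change 1.83 ± 0.24 with adjusted p = 6.71e-06 for Klf4 and 0.98 ± 0.27 with adjusted p = 0.00574 for Pparg). With the KC libraries hfd1 and hf3 left out, 2 of the 17 were higher and 11 lower.

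The list of BMP and TGF-beta signalling, a pathway that acts upstream of ID genes in Kupffer cells, had 14 of 20 members lower and none higher in ATM, with a median of -0.74. Besides Id1 and Id3, the lower members with the smallest p were Id2 and Smad7. Id2 averaged 319 ± 63.8 CPM in ATM and 1205 ± 117 CPM in KC. Smad7, a feedback inhibitor of the pathway, averaged 0.637 ± 0.125 CPM in ATM and 6.94 ± 1.03 CPM in KC (log2 fold change -1.92 ± 0.13 with adjusted p = 2.57e-09 for Id2 and -3.43 ± 0.20 with adjusted p = 5.38e-10 for Smad7). Cx3cr1pos HFD held 135 ± 17.7 CPM of Id1, 1066 ± 238 CPM of Id3, 1523 ± 129 CPM of Id2 and 6.81 ± 1.51 CPM of Smad7. Some members, such as the endoglin gene Eng, are also endothelial genes, and the endothelial marker sums were higher in KC; their part was not tested. Without KC hfd1 and hf3, 13 members were lower and 1 higher, and without hfd1 alone 1 was higher.

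**Figure D3:**
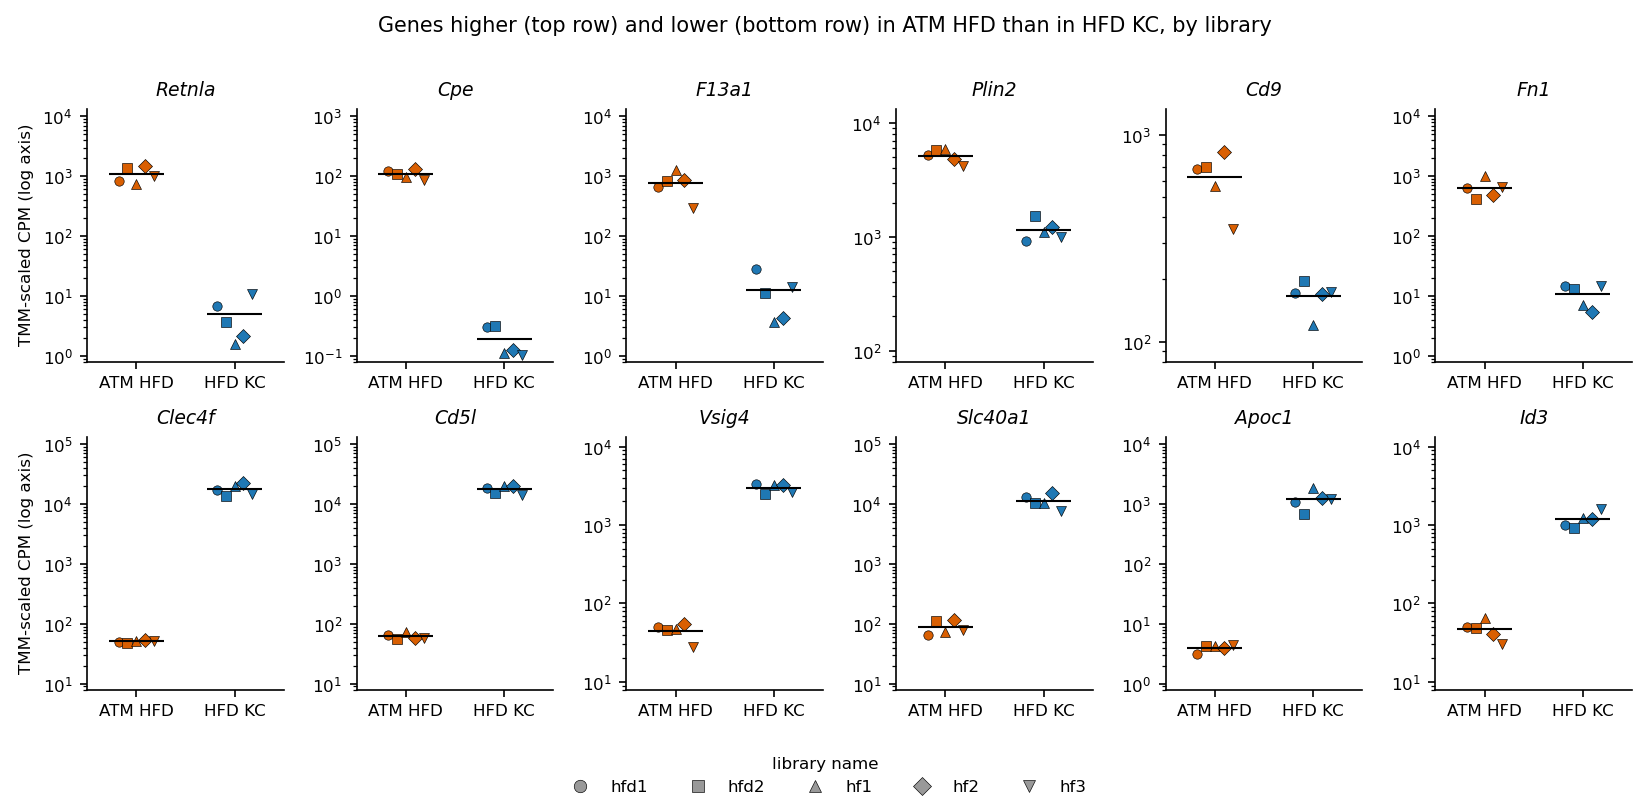
TMM-scaled CPM (y axis, log scale) of 12 named genes in the 5 ATM HFD and 5 HFD KC libraries, with 1 symbol per library name and a bar at the group mean. In each panel the ATM and KC libraries lie apart, with Cpe at most 0.310 CPM in KC and at least 86.2 CPM in ATM.

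The 12 largest rises in ATM outside the marker lists ran from Cpe to Fam198b. Cpe, a carboxypeptidase that trims prohormones, stood at 121, 109, 98.7, 130.0 and 86.2 CPM in ATM, against 0.298, 0.310, 0.111, 0.125 and 0.102 CPM in KC. Retnla, which encodes RELM alpha and marks alternative activation, stood at 835, 1366, 734, 1455 and 1017 CPM in ATM, against 6.82, 3.69, 1.55, 2.13 and 10.7 CPM in KC. Anxa1, which encodes annexin A1, stood at 3442, 3458, 2742, 3876 and 3053 CPM in ATM, against 54.6, 95.7, 13.9, 18.98 and 46.7 CPM in KC. In KC, Cpe reached at most 0.310 CPM, and no gene of the 3 overlapped between groups (log2 fold change 9.15 ± 0.30 with adjusted p = 5.83e-13 for Cpe, 7.75 ± 0.53 with adjusted p = 3.77e-09 for Retnla and 6.17 ± 0.50 with adjusted p = 2.69e-08 for Anxa1). Ctsk, the collagen-cleaving cathepsin K, averaged 533 ± 86.8 CPM in ATM and 7.17 ± 8.61 CPM in KC. F13a1, the A chain of coagulation factor XIII, averaged 783 ± 356 CPM in ATM and 12.3 ± 9.84 CPM in KC. Fcrls, an Fc receptor-like gene known from mouse microglia, averaged 350.1 ± 101 CPM in ATM and 2.80 ± 2.34 CPM in KC. Gpr34, a lysophosphatidylserine receptor, averaged 191 ± 53 CPM in ATM and 2.78 ± 1.92 CPM in KC. Maoa, which encodes monoamine oxidase A, averaged 57.1 ± 20.6 CPM in ATM and 0.740 ± 0.393 CPM in KC. Hspb7, a small heat shock protein, averaged 85.04 ± 23.8 CPM in ATM and 0.324 ± 0.343 CPM in KC. Ahnak2 averaged 102 ± 40.8 CPM in ATM and 1.0 ± 0.307 CPM in KC. The sodium-proton exchanger Slc9a4 averaged 64.5 ± 10.1 CPM in ATM and 0.896 ± 1.54 CPM in KC. Fam198b averaged 163 ± 47.7 CPM in ATM and 2.62 ± 2.91 CPM in KC. All 12 genes lay apart between the groups, and each was called without any 1 of the 10 libraries, as the naming rule asked. In Cx3cr1pos HFD the means of all 12 genes but Retnla and Ctsk lay between those of KC and ATM. Fcrls and Gpr34 stood there at 25.4 ± 13.5 and 24.9 ± 9.05 CPM, and Anxa1 at 153 ± 75.0 CPM. Retnla and Ctsk stood there at 3.06 ± 1.51 and 6.00 ± 6.17 CPM, under their KC means.

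The 12 largest falls in ATM outside the marker lists held, besides Marco, Clec4f, Cd5l, Clec1b and Timd4, the lipoprotein gene Apoc1. It stood at 3.19, 4.26, 4.28, 3.90 and 4.36 CPM in ATM, against 1072, 677, 1834, 1266 and 1195 CPM in KC (log2 fold change -8.24 ± 0.43, adjusted p = 1.55e-10). Adamdec1, a metalloprotease-like gene, averaged 0.763 ± 0.103 CPM in ATM and 243 ± 64.8 CPM in KC and stood at 189 ± 45.3 CPM in Cx3cr1pos HFD. Ccdc148 averaged 0.604 ± 0.161 CPM in ATM and 181 ± 58.5 CPM in KC. The kinase gene Dmpk averaged 0.445 ± 0.304 CPM in ATM and 105 ± 58.9 CPM in KC. Paqr9 averaged 0.353 ± 0.120 CPM in ATM and 71.2 ± 23.5 CPM in KC. Aass, an enzyme of lysine breakdown, stood at 0.225, 0.219, 0.294, 0.228 and 0.401 CPM in ATM, against 96.8, 42.8, 23.2, 27.8 and 131 CPM in KC. Flt4, which encodes the endothelial receptor VEGFR3, stood at 0.675, 0.533, 0.294, 0.570 and 0.401 CPM in ATM, against 182, 85.1, 38.6, 24.4 and 204 CPM in KC. In KC both genes were highest in hf3 and hfd1, the libraries with the highest endothelial sums. Without those 2 libraries the log2 fold change of Flt4 was -6.64, against -7.76 with all, and it remained called lower. The KC libraries kept still had endothelial sums of 1906 to 3180 CPM, against at most 847 CPM in ATM. The part of endothelial RNA in both genes was not tested.

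Genes of lipid-associated macrophages, the TREM2-positive state described in obese fat, were mostly higher in ATM. Of 22 tested, 16 were higher and 1 lower, with a median of 1.92. Plin2, which coats lipid droplets, stood at 5216, 5808, 5879, 4786 and 4200 CPM in ATM, against 920.0, 1508, 1110.4, 1208 and 993 CPM in KC. Lgals3, which encodes galectin-3, stood at 2298, 3773, 1805, 2638 and 2502 CPM in ATM, against 596, 845, 614, 692 and 804 CPM in KC. Cd9, a tetraspanin, stood at 683, 695, 564, 824 and 352 CPM in ATM, against 172, 196, 120.4, 170.4 and 173 CPM in KC. None of the 3 overlapped between groups, and ATM hf3 was the lowest ATM library for Plin2 and Cd9 (log2 fold change 2.17 ± 0.14 with adjusted p = 1.89e-09 for Plin2, 1.87 ± 0.17 with adjusted p = 1.43e-07 for Lgals3 and 1.90 ± 0.20 with adjusted p = 4.71e-07 for Cd9). Anpep, the aminopeptidase CD13, averaged 489 ± 71.2 CPM in ATM and 61.1 ± 33.1 CPM in KC. Trem2 and Gpnmb define the state and are named outside the naming rule, after their values were seen. Trem2 stood at 921, 1124, 907, 1087 and 911 CPM in ATM, against 103, 373, 134, 233 and 140.3 CPM in KC. Gpnmb stood at 3897, 3794, 3343, 3726 and 2882 CPM in ATM, against 389, 1585, 124, 286 and 248 CPM in KC. Both were higher in every ATM library than in any KC library (log2 fold change 2.33 ± 0.28 with adjusted p = 2.45e-06 for Trem2 and 2.74 ± 0.66 with adjusted p = 0.00229 for Gpnmb), and both were highest in hfd2 among the KC libraries. In Cx3cr1pos HFD they averaged 571 ± 133 and 2190.2 ± 1279 CPM, and in STD KC 69.02 ± 7.72 and 34.8 ± 40.5 CPM. Spp1, the osteopontin gene, stood at 1005, 202, 1874, 351 and 259 CPM in ATM, against 21.7, 111, 10.04, 10.3 and 16.2 CPM in KC. The ATM libraries spread widely, with hf1 and hfd1 highest, and none overlapped KC (log2 fold change 4.45 ± 0.81, adjusted p = 2.14e-04).

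The other members of that list were not called higher in ATM. Apoe, which carries lipid out of macrophages, stood at 5156, 8978, 4531, 4682 and 4045 CPM in ATM, against 11181, 21380, 10572, 14107 and 10318 CPM in KC. The highest library of each group was hfd2, and the groups did not overlap (log2 fold change -1.30 ± 0.23, adjusted p = 1.68e-04). Ctsb and Ctsd encode cathepsins of the lysosome. Ctsb averaged 31412 ± 3869 CPM in ATM and 32861 ± 5506 CPM in KC. Ctsd averaged 9011 ± 484 CPM in ATM and 9056 ± 2756 CPM in KC. Mmp12, the macrophage elastase, averaged 1116 ± 144 CPM in ATM and 1155 ± 426 CPM in KC. Lipa, the lysosomal acid lipase, averaged 2866 ± 494 CPM in ATM and 2264 ± 553 CPM in KC. Tyrobp, the adaptor of TREM2, averaged 1350 ± 104 CPM in ATM and 1578 ± 218 CPM in KC. These 5 did not pass the test (log2 fold change -0.07 ± 0.13 with adjusted p = 0.712 for Ctsb, -0.01 ± 0.21 with adjusted p = 0.981 for Ctsd, -0.05 ± 0.35 with adjusted p = 0.918 for Mmp12, 0.34 ± 0.19 with adjusted p = 0.145 for Lipa and -0.22 ± 0.10 with adjusted p = 0.0771 for Tyrobp). Without KC hfd2 Tyrobp was called lower, with a log2 fold change of -0.28.

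Lipid uptake, droplet and lipase genes were also mostly higher, with 13 of 21 higher and 3 lower in ATM. Lpl, the secreted lipase that frees fatty acids from lipoproteins, stood at 8361, 7221, 7400.2, 9482 and 7168 CPM in ATM, against 2387, 3498, 2702, 3124 and 2495 CPM in KC. Angptl4, an inhibitor of that lipase, stood at 189, 235, 161, 171 and 128 CPM in ATM, against 18.2, 35.6, 20.2, 40.5 and 23.99 CPM in KC. Both pairs of groups lay apart (log2 fold change 1.48 ± 0.16 with adjusted p = 7.41e-07 for Lpl and 2.68 ± 0.22 with adjusted p = 2.53e-08 for Angptl4). Plin3, a second droplet coat gene, averaged 133 ± 11.7 CPM in ATM and 74.4 ± 9.88 CPM in KC. Among the lower members, the fatty acid binding gene Fabp7 averaged 8.46 ± 1.67 CPM in ATM and 432 ± 83.04 CPM in KC. Gpihbp1, which anchors lipoprotein lipase to endothelium, averaged 9.08 ± 3.27 CPM in ATM and 231 ± 178 CPM in KC. Lipe, the hormone-sensitive lipase, averaged 17.7 ± 4.10 CPM in ATM and 26.8 ± 4.60 CPM in KC and overlapped between groups.

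The list of cholesterol synthesis and that of LXR targets and cholesterol efflux moved in opposite directions. Of 22 genes of cholesterol synthesis and its control, 18 were higher and none lower in ATM, with a median of 0.67. Hmgcs1, the synthase ahead of the rate-limiting enzyme, stood at 100.5, 76.7, 88.2, 90.1 and 86.96 CPM in ATM, against 43.1, 44.5, 30.9, 36.4 and 37.1 CPM in KC. Msmo1, Sqle and Hsd17b7 encode enzymes of later steps. Msmo1 averaged 102 ± 16.1 CPM in ATM and 40.1 ± 3.94 CPM in KC. Sqle averaged 28.7 ± 4.32 CPM in ATM and 7.66 ± 2.08 CPM in KC. Hsd17b7 averaged 14.2 ± 2.09 CPM in ATM and 3.24 ± 0.958 CPM in KC (log2 fold change 1.20 ± 0.11 with adjusted p = 1.61e-07 for Hmgcs1, 1.35 ± 0.14 with adjusted p = 4.58e-07 for Msmo1, 1.91 ± 0.21 with adjusted p = 1.35e-06 for Sqle and 2.13 ± 0.22 with adjusted p = 5.70e-07 for Hsd17b7). In contrast, 13 of 15 LXR targets and efflux genes were lower in ATM and 1 was higher. That was Npc1, which exports cholesterol from lysosomes, at 136 ± 12.6 CPM in ATM and 109 ± 15.8 CPM in KC. Besides Nr1h3 and Apoc1, Scd2, a fatty acid desaturase, averaged 15.5 ± 4.19 CPM in ATM and 135 ± 25.3 CPM in KC. The lipoprotein gene Apoc2 averaged 9.40 ± 1.25 CPM in ATM and 25.05 ± 3.85 CPM in KC (log2 fold change -3.12 ± 0.20 with adjusted p = 1.36e-09 for Scd2 and -1.41 ± 0.12 with adjusted p = 5.66e-08 for Apoc2). Within the hfd names 10 of the 22 synthesis genes were higher and none lower, and 10 of the 15 LXR targets were lower and none higher.

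Perivascular-type and alternative activation genes were higher in 13 and lower in 5 of 21 members in ATM. Clec10a, a lectin of alternatively activated macrophages, stood at 234, 321, 470.4, 334 and 251 CPM in ATM, against 15.02, 14.1, 18.5, 18.3 and 15.1 CPM in KC. Pf4, a chemokine gene also known from platelets, stood at 602, 669.7, 1116, 730.1 and 478 CPM in ATM, against 26.96, 55.4, 41.4, 43.3 and 36.7 CPM in KC. No library of 1 group reached the other for either gene (log2 fold change 4.31 ± 0.18 with adjusted p = 1.10e-11 for Clec10a and 4.14 ± 0.23 with adjusted p = 2.73e-10 for Pf4). Of 6 platelet markers 2 were higher and 3 lower, and 3 and 1 without KC hfd1. Itga2b, a platelet integrin, averaged 0.668 ± 0.333 CPM in ATM and 4.88 ± 4.97 CPM in KC. Ppbp, a platelet chemokine, averaged 7.64 ± 9.33 CPM in ATM and 3.56 ± 3.80 CPM in KC and was not called, with a log2 fold change of 1.10. Without KC hfd1 Ppbp was called higher at 1.98, and without ATM hf1 its log2 fold change was -0.01. Among the lower members, Fcna, a ficolin, averaged 36.8 ± 8.90 CPM in ATM and 1612 ± 474 CPM in KC. The chemokine gene Ccl24 averaged 16.1 ± 4.66 CPM in ATM and 118 ± 52.5 CPM in KC. The hemoglobin receptor gene Cd163 averaged 157 ± 60.9 CPM in ATM and 689 ± 357 CPM in KC. The folate receptor gene Folr2 averaged 594 ± 105 CPM in ATM and 1121 ± 246 CPM in KC (log2 fold change -5.45 ± 0.32 with adjusted p = 6.57e-10 for Fcna, -2.88 ± 0.32 with adjusted p = 1.22e-06 for Ccl24, -2.13 ± 0.34 with adjusted p = 6.59e-05 for Cd163 and -0.92 ± 0.24 with adjusted p = 0.00446 for Folr2). Cx3cr1pos HFD held 225 ± 103 CPM of Fcna, 37.3 ± 14.99 CPM of Ccl24, 30.7 ± 10.9 CPM of Cd163 and 166 ± 73.96 CPM of Folr2.

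Genes known from blood monocytes and their early progeny were higher in 14 and lower in 3 of 19 in ATM. Fn1, the fibronectin gene, stood at 627, 411, 1015, 494 and 653 CPM in ATM, against 14.5, 12.9, 6.97, 5.39 and 14.7 CPM in KC. S100a6 and S100a4 encode small calcium-binding proteins. S100a6 averaged 268 ± 41.9 CPM in ATM and 5.69 ± 2.60 CPM in KC. S100a4 averaged 48.8 ± 13.5 CPM in ATM and 0.793 ± 0.246 CPM in KC. Ccr2, the receptor that calls monocytes from the marrow, stood at 147, 139, 291, 284 and 284 CPM in ATM, against 42.97, 33.3, 15.1, 21.9 and 37.3 CPM in KC, and Cx3cr1pos HFD averaged 482 ± 196 CPM. All 4 were apart between the groups (log2 fold change 5.88 ± 0.41 with adjusted p = 4.44e-09 for Fn1, 5.56 ± 0.29 with adjusted p = 1.77e-10 for S100a6, 5.93 ± 0.27 with adjusted p = 3.62e-11 for S100a4 and 2.93 ± 0.33 with adjusted p = 1.50e-06 for Ccr2). Among the lower members, Plac8 averaged 5.34 ± 2.71 CPM in ATM and 82.4 ± 39.6 CPM in KC. Ms4a4c averaged 9.33 ± 3.14 CPM in ATM and 26.1 ± 3.12 CPM in KC. Within the hfd names 8 of the 19 were higher and 4 lower. Fn1 is also a fibroblast gene, and the adipose stromal marker sums moved with it; their part was not tested.

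Every one of 22 interferon-stimulated genes was lower in ATM, against 25.2% of all genes, with a median log2 fold change of -2.09. The 22 were also lower within the hf names and within the hfd names. Irf7 stood at 57.4, 93.1, 46.9, 52.3 and 36.1 CPM in ATM, against 1270.5, 1141, 1294, 1150 and 1260.3 CPM in KC. Bst2, the tetherin gene, stood at 68.1, 86.7, 65.2, 69.3 and 57.8 CPM in ATM, against 287, 259.5, 297, 229.8 and 301 CPM in KC. Usp18, which removes the ISG15 tag, stood at 16.2, 29.1, 19.2, 23 and 14.5 CPM in ATM, against 120.1, 138, 118, 121 and 160.3 CPM in KC. The KC libraries lay close together for Irf7, and no ATM library of the 3 genes reached a KC library (log2 fold change -4.42 ± 0.21 with adjusted p = 5.92e-11 for Irf7, -1.98 ± 0.12 with adjusted p = 1.13e-09 for Bst2 and -2.69 ± 0.18 with adjusted p = 2.18e-09 for Usp18). Xaf1 averaged 25.1 ± 2.80 CPM in ATM and 80.1 ± 6.84 CPM in KC (log2 fold change -1.67 ± 0.11, adjusted p = 1.39e-09). Rsad2, the viperin gene, averaged 18.2 ± 3.85 CPM in ATM and 104 ± 19.05 CPM in KC. Oas3, an RNA-sensing synthetase, averaged 9.16 ± 3.59 CPM in ATM and 105 ± 25.1 CPM in KC. Ifit3, which binds foreign RNA with its relatives, averaged 11.6 ± 4.19 CPM in ATM and 116 ± 20.96 CPM in KC. These 3 are named after their values were seen, for their promoters. Reads of Ifit3 could be split with a near copy. Cx3cr1pos HFD held 843 ± 152 CPM of Irf7, 234 ± 25.96 CPM of Bst2 and 150.4 ± 28.4 CPM of Usp18. STD KC held 1264 ± 64.5 CPM of Irf7, 252 ± 37.8 CPM of Bst2 and 128 ± 9.18 CPM of Usp18.

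**Figure D4:**
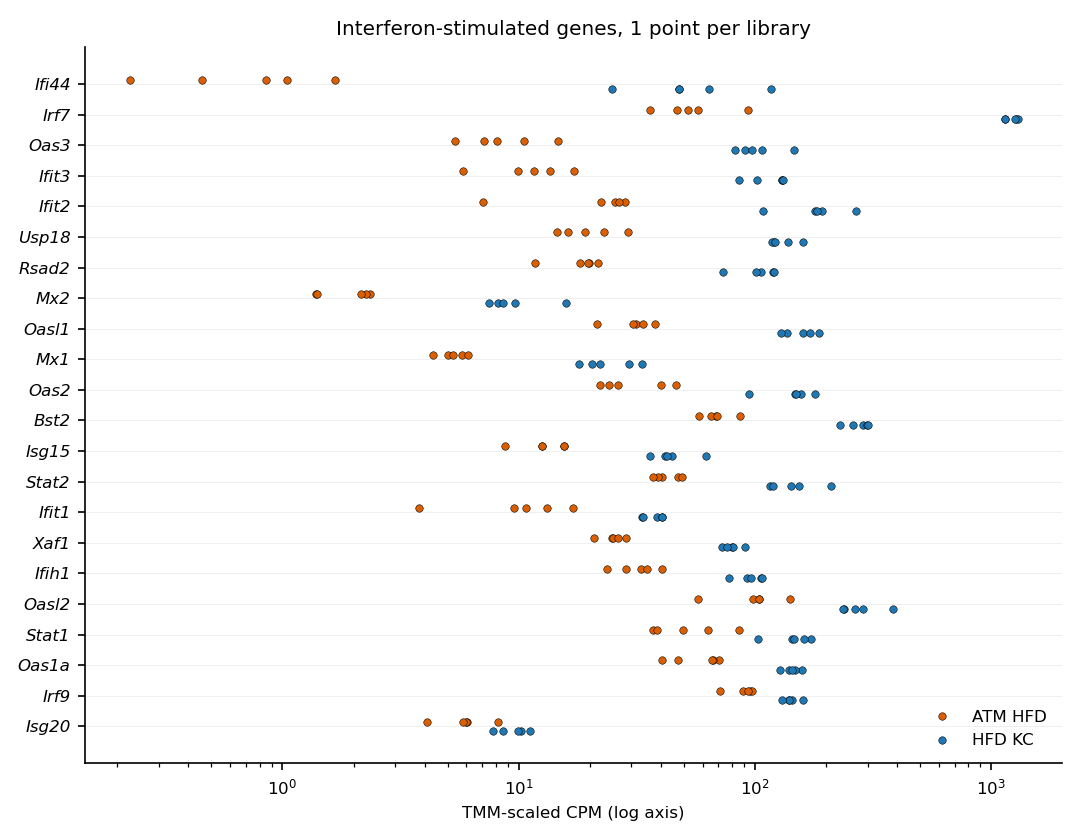
TMM-scaled CPM (x axis, log scale) of the 22 interferon-stimulated genes in single libraries, with ATM HFD points above HFD KC points in each row and rows ordered by fold change. The ATM points lie left of the KC points in each row but that of Isg20, where they overlap.

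Promoters are shown because these genes were lower together and such genes are known to share a response element. The interferon-stimulated response element was searched as GAAANNGAAA on both strands, with overlapping matches counted, in RefSeq windows of GRCm38.p6 from 250 bases before to 50 after each start. Of the 22 genes 17 were matched by symbol, and 9 of these (52.9%) held the element, against 3.99% of the 27025 genes in the table. The list was chosen as genes of a kind known to share this element, so the higher share does not depend on the levels in ATM or KC. The 4 matched genes with the smallest adjusted p that hold it are printed 5′ to 3′ on the gene's strand, with the element in capitals. They are Bst2 (chr8:71537423-71537722, minus strand), Oas3 (chr5:120777610-120777909, minus), Rsad2 (chr12:26456403-26456702, minus) and Ifit3 (chr19:34583279-34583578, plus).
Bst2: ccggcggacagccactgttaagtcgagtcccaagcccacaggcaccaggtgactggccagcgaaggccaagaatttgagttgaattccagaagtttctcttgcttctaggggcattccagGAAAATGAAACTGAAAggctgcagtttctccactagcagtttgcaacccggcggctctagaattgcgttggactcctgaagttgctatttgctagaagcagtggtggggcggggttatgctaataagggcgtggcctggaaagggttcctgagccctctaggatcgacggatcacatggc
Oas3: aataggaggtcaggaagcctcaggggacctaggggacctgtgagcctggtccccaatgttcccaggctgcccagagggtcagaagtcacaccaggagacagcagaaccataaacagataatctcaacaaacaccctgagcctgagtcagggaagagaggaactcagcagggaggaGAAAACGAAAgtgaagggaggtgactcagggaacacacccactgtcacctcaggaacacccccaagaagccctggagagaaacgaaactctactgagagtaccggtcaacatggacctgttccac
Rsad2: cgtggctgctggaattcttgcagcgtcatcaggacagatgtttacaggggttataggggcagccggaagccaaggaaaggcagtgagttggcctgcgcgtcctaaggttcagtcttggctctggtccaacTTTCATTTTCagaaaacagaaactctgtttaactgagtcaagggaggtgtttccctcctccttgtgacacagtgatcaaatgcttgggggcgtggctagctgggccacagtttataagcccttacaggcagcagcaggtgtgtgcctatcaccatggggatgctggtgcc
Ifit3: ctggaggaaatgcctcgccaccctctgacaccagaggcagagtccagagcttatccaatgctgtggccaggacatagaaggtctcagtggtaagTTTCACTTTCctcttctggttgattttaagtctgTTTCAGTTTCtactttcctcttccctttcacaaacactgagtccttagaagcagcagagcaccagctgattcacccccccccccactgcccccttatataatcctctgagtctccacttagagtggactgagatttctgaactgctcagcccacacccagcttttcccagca
In Bst2 a pair of overlapping matches forms 1 run, Ifit3 holds a pair of separate matches on the opposite strand, and Rsad2 holds 1 there. A match describes letters in this window and was not tested as a binding site. Irf7 and Xaf1 had no match in theirs.

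Antigen presentation genes split by class. Of 14 MHC class I presentation genes 12 were lower and none higher in ATM. H2-T23 and H2-M3 encode nonclassical class I chains. H2-T23 averaged 299.8 ± 55.6 CPM in ATM and 683 ± 89.98 CPM in KC. H2-M3 averaged 101 ± 16.9 CPM in ATM and 160.3 ± 24.7 CPM in KC. Psmb9, a subunit of the immunoproteasome, averaged 61 ± 12.9 CPM in ATM and 125 ± 12.2 CPM in KC. B2m, the shared light chain, averaged 2436 ± 415 CPM in ATM and 4038 ± 408 CPM in KC (log2 fold change -1.19 ± 0.14 with adjusted p = 2.13e-06 for H2-T23, -1.04 ± 0.13 with adjusted p = 3.34e-06 for Psmb9, -0.73 ± 0.12 with adjusted p = 6.89e-05 for B2m and -0.67 ± 0.13 with adjusted p = 3.92e-04 for H2-M3). Within the hfd names 6 of the 14 were lower. The class I genes are near copies of each other, so reads could be split between them. Of 13 class II genes, 6 were higher and 4 lower. H2-Aa stood at 9251, 9381, 8131, 10906 and 8996 CPM in ATM, against 2298, 4981, 1588, 3252 and 3594 CPM in KC. H2-Eb1 averaged 5404 ± 509 CPM in ATM and 1643 ± 804 CPM in KC. H2-Ab1 averaged 6079 ± 941 CPM in ATM and 2388 ± 1137 CPM in KC. Cd74, the invariant chain, averaged 43171 ± 4693 CPM in ATM and 19800 ± 6959 CPM in KC. All 4 were higher in ATM (log2 fold change 1.57 ± 0.22 with adjusted p = 1.66e-05 for H2-Aa, 1.72 ± 0.26 with adjusted p = 3.52e-05 for H2-Eb1, 1.35 ± 0.26 with adjusted p = 3.45e-04 for H2-Ab1 and 1.12 ± 0.19 with adjusted p = 1.15e-04 for Cd74), and in Cx3cr1pos HFD H2-Aa averaged 10942 ± 1551 CPM. Among the lower members, Ifi30, a lysosomal thiol reductase, averaged 171 ± 18.5 CPM in ATM and 394 ± 83.2 CPM in KC. H2-DMb2, a chain of the peptide exchanger, averaged 7.37 ± 2.20 CPM in ATM and 19.8 ± 8.96 CPM in KC.

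Complement genes were lower in 12 and higher in 4 of 18 in ATM. C6, a component of the membrane attack complex, stood at 10.7, 12.3, 9.06, 10.6 and 5.76 CPM in ATM, against 1474, 689, 1497, 1203 and 933 CPM in KC. Cfp, which encodes properdin, averaged 895 ± 124 CPM in ATM and 5197 ± 998 CPM in KC. C2 and Cfb encode the serine proteases of the classical and alternative convertases. C2 averaged 1.02 ± 0.213 CPM in ATM and 55.8 ± 22.3 CPM in KC. Cfb averaged 1.44 ± 0.259 CPM in ATM and 19.8 ± 7.93 CPM in KC (log2 fold change -6.91 ± 0.35 with adjusted p = 1.12e-10 for C6, -2.54 ± 0.14 with adjusted p = 3.22e-10 for Cfp, -5.77 ± 0.35 with adjusted p = 8.21e-10 for C2 and -3.78 ± 0.29 with adjusted p = 1.46e-08 for Cfb). The receptors of the anaphylatoxins ran the other way. C5ar1 stood at 2119.8, 2151, 3041, 1870.5 and 1449 CPM in ATM, against 431, 618, 740.1, 567 and 542 CPM in KC. C3ar1 averaged 1516 ± 252 CPM in ATM and 698 ± 88.7 CPM in KC (log2 fold change 1.88 ± 0.20 with adjusted p = 6.27e-07 for C5ar1 and 1.12 ± 0.13 with adjusted p = 1.70e-06 for C3ar1). Serping1, the C1 inhibitor, averaged 41.6 ± 9.17 CPM in ATM and 9.30 ± 5.36 CPM in KC. C1s1, a protease of the C1 complex, averaged 8.49 ± 2.64 CPM in ATM and 2.28 ± 1.41 CPM in KC. Fibroblasts also make both, and the stromal marker sums were higher in ATM. Hepatocytes make C2, C6 and Cfb too, and the hepatocyte marker sums were higher in KC; their part was not tested.

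Iron and heme genes were lower in 10 and higher in 3 of 20 in ATM, and higher in 5 without KC hf2. Slc40a1, which encodes the iron exporter ferroportin, stood at 65.2, 111, 72.4, 118 and 79.7 CPM in ATM, against 12986, 10449, 10391, 15287 and 7605 CPM in KC. The lowest KC library stood far above the highest ATM library (log2 fold change -6.99 ± 0.35, adjusted p = 1.07e-10), and Cx3cr1pos HFD averaged 4709 ± 2446 CPM. Slc46a1, a heme and folate transporter, averaged 19.3 ± 2.37 CPM in ATM and 66.2 ± 14.4 CPM in KC. Blvrb, a biliverdin reductase, averaged 207 ± 21.5 CPM in ATM and 439 ± 55.4 CPM in KC (log2 fold change -1.78 ± 0.16 with adjusted p = 8.36e-08 for Slc46a1 and -1.09 ± 0.12 with adjusted p = 7.38e-07 for Blvrb). Hpx, the hemopexin gene of hepatocytes, averaged 0.825 ± 0.126 CPM in ATM and 36.6 ± 22.99 CPM in KC. Steap3, a ferric reductase of endosomes, stood at 149, 141, 157, 149 and 129 CPM in ATM, against 12.3, 23.8, 24.2, 20.1 and 11.1 CPM in KC. Every ATM library lay above every KC library (log2 fold change 2.99 ± 0.21, adjusted p = 4.41e-09). Trf, the transferrin gene, averaged 214 ± 24.4 CPM in ATM and 110.2 ± 28.99 CPM in KC, and was the 1 gene of the hepatocyte list called higher in ATM. Ftl1, ferritin light chain, averaged 1617 ± 80.5 CPM in ATM and 1287 ± 82.5 CPM in KC.

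Uptake receptors were split. Of 17 scavenger receptors 10 were lower and 4 higher in ATM. Vsig4, the complement receptor CRIg, stood at 49.8, 45.6, 46.9, 55.03 and 27.6 CPM in ATM, against 3314, 2470.4, 3217, 3269 and 2608 CPM in KC (log2 fold change -6.05 ± 0.32, adjusted p = 1.49e-10). Scarb1, a receptor for high-density lipoprotein, averaged 84.5 ± 12.4 CPM in ATM and 311 ± 41.7 CPM in KC. Scarb2, a lysosomal membrane protein, averaged 45.01 ± 3.69 CPM in ATM and 167 ± 15.5 CPM in KC. In contrast, Cd36, which takes up oxidized lipoproteins and fatty acids, stood at 6281, 6528, 5539, 6804 and 4545 CPM in ATM, against 1746, 1922, 1044, 1406 and 1634 CPM in KC, with no overlap between groups. Stab1, a clearance receptor, averaged 568 ± 76.5 CPM in ATM and 289 ± 71.1 CPM in KC (log2 fold change 1.94 ± 0.26 with adjusted p = 1.17e-05 for Cd36 and 0.98 ± 0.16 with adjusted p = 9.80e-05 for Stab1). Scara5 averaged 2.02 ± 1.42 CPM in ATM and 0.133 ± 0.107 CPM in KC. Among 17 genes of apoptotic cell uptake 6 were higher and 7 lower (35.3% and 41.2%, against 23.8% and 25.2% of all genes). Mertk and Axl encode receptor kinases. Mertk averaged 113 ± 34.5 CPM in ATM and 609 ± 90.7 CPM in KC. Axl averaged 343 ± 83.7 CPM in ATM and 1072 ± 184 CPM in KC (log2 fold change -2.43 ± 0.21 with adjusted p = 6.68e-08 for Mertk and -1.64 ± 0.16 with adjusted p = 2.19e-07 for Axl). Genes of the bridging proteins that link dying cells to receptors were higher. Gas6 stood at 55.9, 89.5, 65.7, 38.6 and 52.6 CPM in ATM, against 5.78, 5.80, 5.97, 3.67 and 9.39 CPM in KC. Mfge8 averaged 521 ± 87.4 CPM in ATM and 56.8 ± 36.1 CPM in KC (log2 fold change 3.30 ± 0.28 with adjusted p = 5.88e-08 for Gas6 and 3.20 ± 0.38 with adjusted p = 2.85e-06 for Mfge8). Fibroblasts also make both, and the part of the stromal marker sums was not tested.

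C-type lectins were evenly split, as all genes nearly were, with 8 higher and 8 lower of 21. Each share was 38.1%, against 23.8% and 25.2% of all genes. Besides Clec10a, the higher members with the smallest p were Clec4b1, Clec4e, which encodes the glycolipid receptor Mincle, and Clec4d. Clec4e stood at 20.6, 16.05, 58.1, 19.9 and 28.5 CPM in ATM, against 3.16, 2.82, 0.691, 1.66 and 2.79 CPM in KC. ATM hf1 was the highest library, and the groups did not overlap (log2 fold change 3.68 ± 0.41, adjusted p = 1.32e-06). Clec4b1 averaged 220.1 ± 27.3 CPM in ATM and 71 ± 15.7 CPM in KC. Clec4d averaged 36.7 ± 18.8 CPM in ATM and 7.17 ± 1.45 CPM in KC. Clec4g, a lectin of sinusoidal endothelium, averaged 1.52 ± 0.198 CPM in ATM and 431 ± 319.5 CPM in KC, beside the endothelial sums given above.

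**Figure D5:**
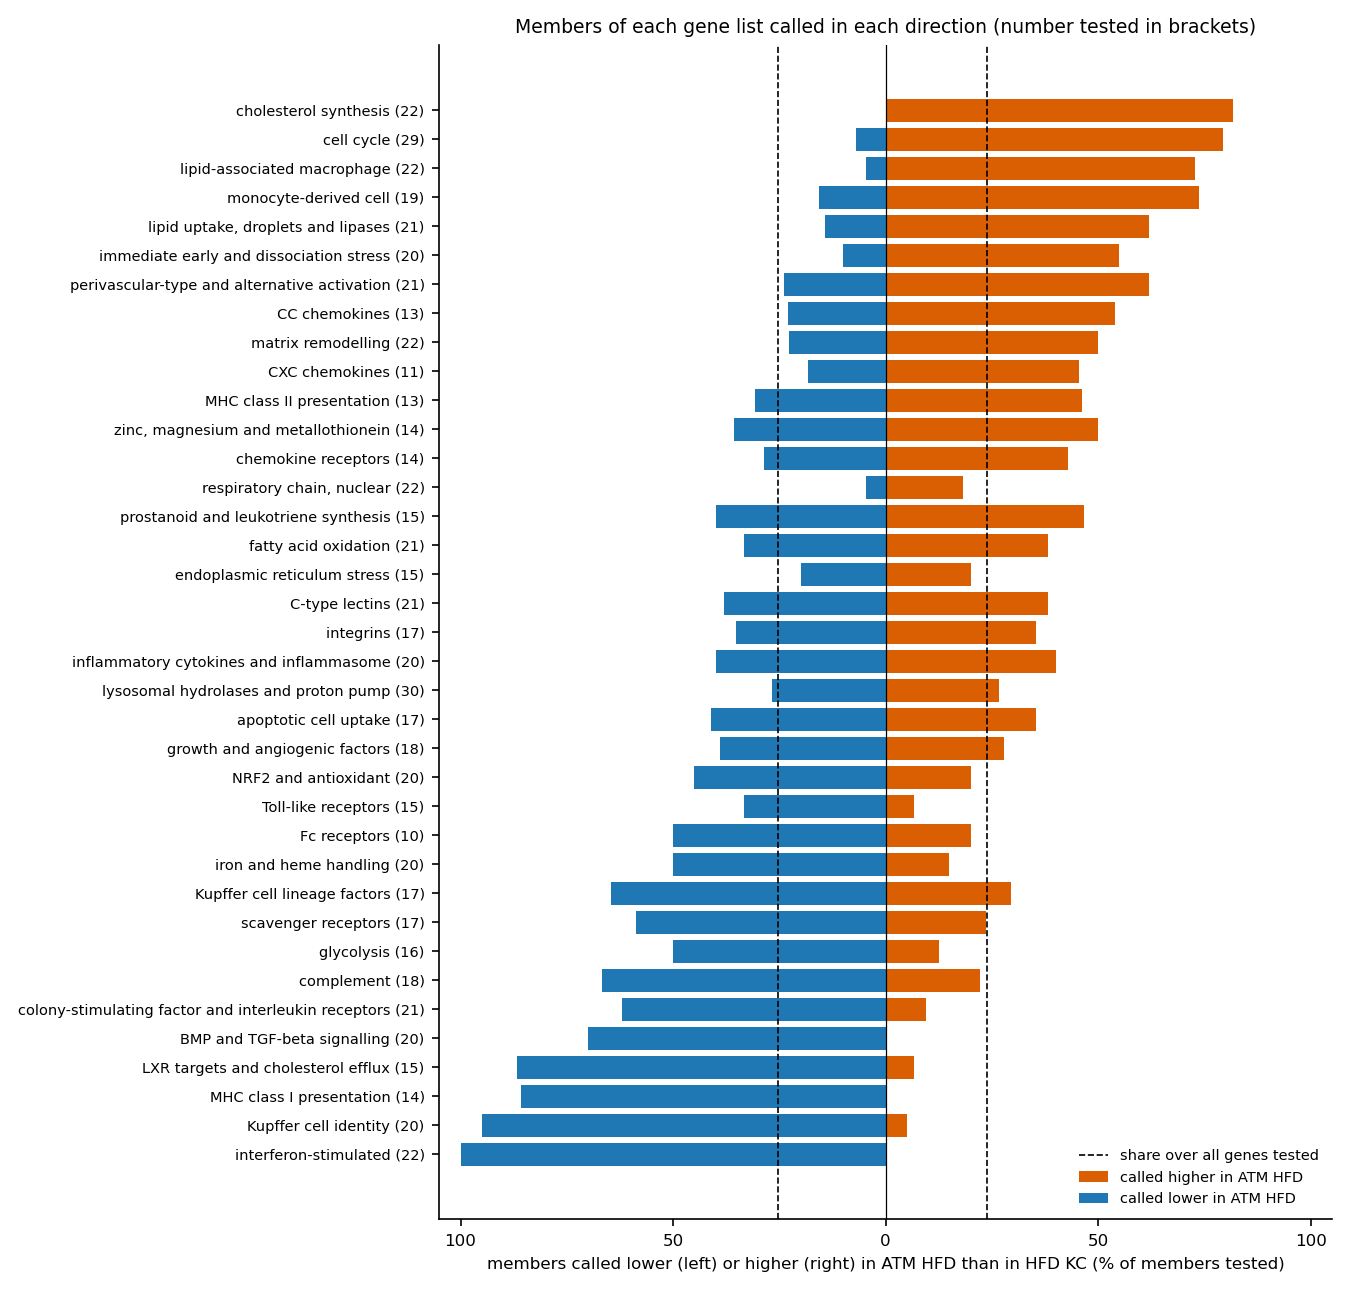
Share of tested members (x axis, %) of each of 37 gene lists that was called higher (right) or lower (left) in ATM HFD than in HFD KC, with dashed lines at the shares over all genes tested, 23.8% and 25.2%. Cholesterol synthesis, cell cycle and lipid-associated macrophage lists lie far to the right, and interferon-stimulated, Kupffer cell identity and MHC class I lists far to the left.

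Among CC chemokines 7 of 13 were higher and 3 lower in ATM, and 5 were lower without KC hf1. Ccl8, a monocyte attractant, stood at 390.1, 319, 502, 358 and 96.96 CPM in ATM, against 9.06, 14.8, 2.27, 3.83 and 11.3 CPM in KC. ATM hf3 was the lowest ATM library and still lay above KC. Ccl9 averaged 1405 ± 591 CPM in ATM and 124 ± 77.8 CPM in KC (log2 fold change 5.33 ± 0.53 with adjusted p = 2.98e-07 for Ccl8 and 3.50 ± 0.38 with adjusted p = 7.74e-07 for Ccl9). Ccl6 averaged 3708 ± 1446 CPM in ATM and 1694 ± 425 CPM in KC. Ccl11, which attracts eosinophils, averaged 4.06 ± 1.64 CPM in ATM and 0.202 ± 0.218 CPM in KC. Ccl4 and Ccl17 were lower in ATM. Ccl4 averaged 93.7 ± 26.9 CPM in ATM and 224 ± 93.7 CPM in KC. Ccl17 averaged 0.244 ± 0.130 CPM in ATM and 3.01 ± 1.63 CPM in KC. Of 11 CXC chemokines 5 were higher and 2 lower, and 4 were lower without KC hf1 or without ATM hf2. Cxcl1 and Cxcl2 encode neutrophil attractants. Cxcl1 averaged 661 ± 144 CPM in ATM and 79.02 ± 100.5 CPM in KC. Cxcl2 averaged 1545 ± 163 CPM in ATM and 372 ± 336 CPM in KC (log2 fold change 3.06 ± 0.61 with adjusted p = 4.94e-04 for Cxcl1 and 2.05 ± 0.43 with adjusted p = 6.98e-04 for Cxcl2). In KC both were highest in hf3, which also had the highest KC sum of immediate early genes. Cxcl13, a B cell attractant, averaged 19.7 ± 9.04 CPM in ATM and 717 ± 709.9 CPM in KC, with a wide spread in KC. Cxcl16, a membrane-bound chemokine, averaged 117 ± 24.4 CPM in ATM and 306 ± 40.9 CPM in KC.

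Of 14 chemokine receptors 6 were higher and 4 lower, with Ccr2 described above, and within the hfd names 3 were higher and 4 lower. Cxcr4, the CXCL12 receptor, averaged 32.2 ± 7.93 CPM in ATM and 10.4 ± 4.79 CPM in KC. Ccr3, an eotaxin receptor, averaged 23.8 ± 11.4 CPM in ATM and 5.49 ± 1.97 CPM in KC. Ccr1 averaged 80.2 ± 70.1 CPM in ATM and 17.03 ± 9.63 CPM in KC (log2 fold change 1.63 ± 0.28 with adjusted p = 1.27e-04 for Cxcr4, 2.11 ± 0.36 with adjusted p = 1.09e-04 for Ccr3 and 2.24 ± 0.47 with adjusted p = 8.56e-04 for Ccr1). Ccr7, Xcr1, Ccr9 and Cxcr3 are known from dendritic cells and lymphocytes and were lower in ATM. Ccr7 averaged 4.06 ± 1.96 CPM in ATM and 22.5 ± 21.6 CPM in KC. Xcr1 averaged 3.08 ± 1.49 CPM in ATM and 12.2 ± 7.94 CPM in KC. Both were highest in KC hfd1 or hf3, and the groups overlapped. Of 12 dendritic cell markers 9 were lower in ATM too, and the part of such cells was not tested.

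Inflammatory cytokine and inflammasome genes did not move as a block, with 8 higher and 8 lower of 20. Each share was 40.0%, against 23.8% and 25.2% of all genes. Tnf stood at 61.9, 68.8, 61.3, 84.7 and 85.5 CPM in ATM, against 9.06, 9.13, 13.02, 18.4 and 22.05 CPM in KC, with no overlap (log2 fold change 2.34 ± 0.32, adjusted p = 1.30e-05). Casp4, the sensor of cytosolic endotoxin, averaged 58.8 ± 12.2 CPM in ATM and 29.05 ± 3.18 CPM in KC. Pycard, the inflammasome adaptor, averaged 126 ± 31.3 CPM in ATM and 58.97 ± 18.2 CPM in KC. Osm, oncostatin M, averaged 12.7 ± 3.06 CPM in ATM and 2.11 ± 2.10 CPM in KC. Il1a stood at 3.86, 2.70, 5.07, 5.44 and 3.53 CPM in ATM, against 159, 133, 141, 160.1 and 217 CPM in KC, with every ATM library far below KC (log2 fold change -5.30 ± 0.23, adjusted p = 1.48e-11). Il18 averaged 18.6 ± 2.20 CPM in ATM and 102 ± 32.2 CPM in KC. Il18bp, which encodes its inhibitor, averaged 19.1 ± 5.30 CPM in ATM and 1596 ± 309 CPM in KC. Il12b averaged 0.342 ± 0.111 CPM in ATM and 14.3 ± 14.7 CPM in KC (log2 fold change -2.45 ± 0.22 with adjusted p = 7.15e-08 for Il18, -6.38 ± 0.28 with adjusted p = 1.53e-11 for Il18bp and -5.39 ± 0.76 with adjusted p = 1.80e-05 for Il12b).

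Toll-like receptor genes were called lower more often than higher, and receptors of cytokines were mostly lower. Of 15 Toll-like receptor genes, 5 (33.3%, against 25.2% of all genes) were lower and 1 (6.67%, against 23.8%) was higher in ATM. The other 9 were not called, as were 7789 of all 15285 genes. Without KC hfd2, KC hf2, KC hf3, ATM hf2 or ATM hf3, 1 at a time, 2 to 4 were higher. Tlr12, a mouse sensor of profilin, averaged 2.85 ± 1.66 CPM in ATM and 127 ± 42.8 CPM in KC. Tlr5, the flagellin receptor, averaged 3.37 ± 1.54 CPM in ATM and 0.227 ± 0.145 CPM in KC (log2 fold change -5.48 ± 0.40 with adjusted p = 7.86e-09 for Tlr12 and 3.86 ± 0.47 with adjusted p = 3.51e-06 for Tlr5). Of 21 colony-stimulating factor and interleukin receptors 13 (61.9%) were lower and 2 (9.52%) higher, and 1 was higher without any 1 of 6 libraries. Il13ra1 averaged 29.5 ± 8.97 CPM in ATM and 149 ± 8.81 CPM in KC. Csf2rb, the shared chain of the GM-CSF receptor, averaged 136 ± 23.4 CPM in ATM and 464 ± 121 CPM in KC. The interferon receptor chains were lower too, with Ifnar2 at 52.3 ± 7.09 CPM in ATM and 126 ± 9.69 CPM in KC. Ifngr1 averaged 406 ± 37.5 CPM in ATM and 792 ± 76.9 CPM in KC (log2 fold change -2.34 ± 0.16 with adjusted p = 2.99e-09 for Il13ra1, -1.77 ± 0.16 with adjusted p = 9.29e-08 for Csf2rb, -1.27 ± 0.11 with adjusted p = 4.88e-08 for Ifnar2 and -0.96 ± 0.09 with adjusted p = 1.33e-07 for Ifngr1). Il1rl1, the IL-33 receptor ST2, stood at 27, 29.1, 19.8, 30.1 and 25.3 CPM in ATM, against 0.238, 0.451, 0.940, 0.470 and 0.256 CPM in KC. It was higher in every ATM library (log2 fold change 5.79 ± 0.42, adjusted p = 7.88e-09). Of 10 Fc receptor genes 5 were lower and 2 higher, Fcrls and Fcgr3. Fcgr4 averaged 113 ± 46.6 CPM in ATM and 494 ± 75.3 CPM in KC. Fcgr3 averaged 1550.5 ± 516 CPM in ATM and 1109 ± 229.6 CPM in KC, overlapped between groups (log2 fold change 0.48 ± 0.19, adjusted p = 0.0414) and lost its call without KC hfd1, KC hfd2, KC hf3 or ATM hf1, with an adjusted p up to 0.108.

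Prostanoid and leukotriene enzymes were mixed, with 7 higher and 6 lower of 15 (46.7% and 40.0%, against 23.8% and 25.2% of all genes). Ptgs1, cyclooxygenase 1, stood at 39.6, 39.6, 52.8, 44.1 and 34.7 CPM in ATM, against 1599, 1357, 1925, 1836 and 1129 CPM in KC (log2 fold change -5.22 ± 0.19, adjusted p = 1.59e-12). Hpgd, which inactivates prostaglandins, averaged 184 ± 57.7 CPM in ATM and 1536 ± 356 CPM in KC. Pla2g4a, which frees arachidonate, averaged 49.4 ± 21.3 CPM in ATM and 238 ± 37.5 CPM in KC. Genes of leukotriene synthesis were higher in ATM. Alox5 averaged 58.2 ± 23.7 CPM in ATM and 4.47 ± 2.56 CPM in KC. Alox5ap averaged 639 ± 112 CPM in ATM and 234 ± 61.2 CPM in KC. Lta4h averaged 121 ± 11.01 CPM in ATM and 85.8 ± 7.73 CPM in KC (log2 fold change 3.70 ± 0.36 with adjusted p = 2.42e-07 for Alox5, 1.45 ± 0.22 with adjusted p = 2.89e-05 for Alox5ap and 0.50 ± 0.08 with adjusted p = 7.19e-05 for Lta4h). Hpgds, the hematopoietic prostaglandin D synthase, averaged 506 ± 39.9 CPM in ATM and 171 ± 34.8 CPM in KC.

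Matrix and growth factor genes were mixed. Of 22 matrix genes 11 were higher and 5 lower. Besides Fn1, Timp2, a metalloprotease inhibitor, averaged 233 ± 59.8 CPM in ATM and 28.3 ± 7.99 CPM in KC. Plau, urokinase, averaged 37.8 ± 6.49 CPM in ATM and 12.3 ± 3.52 CPM in KC. Timp1, an inhibitor like Timp2, averaged 18.4 ± 21.1 CPM in ATM and 0.853 ± 0.499 CPM in KC (log2 fold change 3.04 ± 0.25 with adjusted p = 2.71e-08 for Timp2, 1.62 ± 0.23 with adjusted p = 2.35e-05 for Plau and 4.42 ± 0.62 with adjusted p = 1.57e-05 for Timp1). Lower in ATM were the metalloprotease genes Mmp13, at 17.8 ± 7.68 CPM in ATM and 145 ± 109 CPM in KC, and Mmp14, at 4.11 ± 0.634 CPM in ATM and 21.6 ± 8.19 CPM in KC. Of 18 growth and angiogenic factors 5 (27.8%) were higher and 7 (38.9%) lower, against 5 and 3 within the hfd names. Over all genes the shares were 23.8% and 25.2%. Nrp1 and Nrp2 encode neuropilins. Nrp1 averaged 736 ± 112 CPM in ATM and 405 ± 92.6 CPM in KC. Nrp2 averaged 77.8 ± 8.10 CPM in ATM and 21.9 ± 12.4 CPM in KC. Hbegf, a ligand of the EGF receptor, averaged 13.7 ± 2.01 CPM in ATM and 76.5 ± 22.04 CPM in KC (log2 fold change 0.86 ± 0.17 with adjusted p = 3.61e-04 for Nrp1, 1.83 ± 0.34 with adjusted p = 2.36e-04 for Nrp2 and -2.48 ± 0.19 with adjusted p = 1.81e-08 for Hbegf).

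Energy metabolism genes were mixed. Of 16 glycolysis genes 8 were lower and 2 higher. Hk2, which encodes a hexokinase, stood at 18.3, 12.8, 18.7, 18.2 and 20.4 CPM in ATM, against 76.3, 105, 142, 138 and 89.7 CPM in KC. The groups did not overlap (log2 fold change -2.64 ± 0.18, adjusted p = 3.02e-09). Hk3 averaged 244 ± 28.8 CPM in ATM and 522 ± 86.5 CPM in KC. The phosphofructokinase gene Pfkl averaged 43.2 ± 5.52 CPM in ATM and 121 ± 26.2 CPM in KC. The glucose transporter gene Slc2a1 averaged 29.6 ± 2.21 CPM in ATM and 46.1 ± 9.53 CPM in KC and overlapped between groups. Of 21 fatty acid oxidation genes 8 (38.1%) were higher and 7 (33.3%) lower, and 4 were lower without any 1 of 6 libraries. Acadm, a dehydrogenase of medium-chain fatty acids, averaged 106 ± 14.4 CPM in ATM and 58.7 ± 7.23 CPM in KC. Hadha averaged 289 ± 18.9 CPM in ATM and 185 ± 26.3 CPM in KC. Ppargc1b, a coactivator of the pathway, averaged 9.34 ± 2.33 CPM in ATM and 22.6 ± 2.58 CPM in KC. Of 22 nuclear genes of the respiratory chain 4 were higher and 1 was lower. That was Cox5a, at 65.4 ± 5.24 CPM in ATM and 194 ± 15.1 CPM in KC (log2 fold change -1.57 ± 0.09, adjusted p = 3.22e-10). Both shares of that list lay under those over all genes, but without KC hf1 8 members were higher.

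Lysosomal genes were called at about the rate of all genes, with 8 higher and 8 lower of 30 and a median of 0.000663. Atp6v0d2, a proton pump subunit of osteoclasts and lipid-laden macrophages, stood at 957, 974, 811, 946 and 603 CPM in ATM, against 27.7, 143, 14.5, 36.6 and 46.1 CPM in KC (log2 fold change 4.00 ± 0.61, adjusted p = 3.60e-05). KC hfd2 was the highest KC library, as it was for Gpnmb. Gla and Gusb encode glycosidases. Gla averaged 139 ± 24.4 CPM in ATM and 65.2 ± 15.8 CPM in KC. Gusb averaged 692 ± 76.6 CPM in ATM and 388 ± 74.7 CPM in KC. Ctsh, a cathepsin, averaged 658 ± 75.2 CPM in ATM and 1604 ± 214 CPM in KC (log2 fold change 1.09 ± 0.18 with adjusted p = 7.06e-05 for Gla, 0.84 ± 0.14 with adjusted p = 7.67e-05 for Gusb and -1.29 ± 0.11 with adjusted p = 4.58e-08 for Ctsh).

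Antioxidant genes of the NRF2 group were lower in 9 and higher in 4 of 20. Hmox1, heme oxygenase 1, stood at 564, 451, 1104, 489.8 and 459.6 CPM in ATM, against 2502, 2269, 3360.2, 3240.2 and 1861 CPM in KC. ATM hf1 was the highest ATM library and still lay below KC (log2 fold change -2.11 ± 0.28, adjusted p = 8.24e-06). Gpx3, a secreted peroxidase, averaged 72.9 ± 25.8 CPM in ATM and 444 ± 86.2 CPM in KC. Gsr, glutathione reductase, averaged 10.9 ± 4.19 CPM in ATM and 72.9 ± 27.7 CPM in KC. Prdx6, a peroxiredoxin, averaged 123 ± 18.98 CPM in ATM and 68.01 ± 9.83 CPM in KC and was higher in ATM. Of 14 zinc, magnesium and metallothionein genes 7 were higher and 5 lower, and 3 were lower without ATM hfd1, hfd2, hf2 or hf3. Mt1 and Mt2 encode metallothioneins. Mt1 averaged 643 ± 214 CPM in ATM and 193 ± 46.2 CPM in KC. Mt2 averaged 89.96 ± 48.3 CPM in ATM and 4.60 ± 1.79 CPM in KC. Slc41a2, a magnesium transporter, averaged 57.5 ± 8.78 CPM in ATM and 6.24 ± 2.99 CPM in KC (log2 fold change 1.73 ± 0.20 with adjusted p = 1.75e-06 for Mt1, 4.29 ± 0.36 with adjusted p = 4.69e-08 for Mt2 and 3.20 ± 0.32 with adjusted p = 3.10e-07 for Slc41a2). Slc39a8, a zinc importer, averaged 2.47 ± 1.20 CPM in ATM and 8.76 ± 3.66 CPM in KC and was lower in ATM.

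Integrins were evenly split, as all genes nearly were, with 6 higher and 6 lower of 17. Each share was 35.3%, against 23.8% and 25.2% of all genes. Itgal, the alpha chain of LFA-1, stood at 8.29, 8.12, 7.36, 8.09 and 8.67 CPM in ATM, against 843, 708, 680.1, 665 and 577 CPM in KC. The ATM libraries lay close together and far below KC (log2 fold change -6.42 ± 0.12, adjusted p = 1.04e-15), and Cx3cr1pos HFD averaged 708 ± 59.4 CPM. Itga9 averaged 24.6 ± 5.17 CPM in ATM and 247 ± 58.7 CPM in KC. Itgam and Itgax encode the CD11b and CD11c chains. Itgam averaged 530.3 ± 144 CPM in ATM and 113 ± 49.4 CPM in KC. Itgax averaged 208 ± 17.3 CPM in ATM and 48.7 ± 32.1 CPM in KC. Itga6, a laminin receptor chain, averaged 45.7 ± 12.01 CPM in ATM and 6.03 ± 3.09 CPM in KC (log2 fold change 2.23 ± 0.30 with adjusted p = 1.09e-05 for Itgam, 2.10 ± 0.33 with adjusted p = 5.85e-05 for Itgax and 2.92 ± 0.35 with adjusted p = 3.24e-06 for Itga6).

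Cell cycle genes were higher in 23 and lower in 2 of 29, with a median of 0.77. Pcna, the clamp of DNA polymerases, stood at 69.2, 64.3, 72.05, 80.02 and 69.7 CPM in ATM, against 34.98, 36.5, 36.5, 38.1 and 35.5 CPM in KC. The 5 KC libraries lay close together. Ccnb2, a mitotic cyclin, averaged 45.01 ± 5.41 CPM in ATM and 20.4 ± 3.95 CPM in KC. Birc5, the survivin gene, averaged 36.3 ± 3.89 CPM in ATM and 14.7 ± 3.39 CPM in KC. Mcm6, a helicase subunit, averaged 95.6 ± 10.7 CPM in ATM and 51.6 ± 13.1 CPM in KC (log2 fold change 0.97 ± 0.07 with adjusted p = 1.15e-08 for Pcna, 1.14 ± 0.16 with adjusted p = 1.28e-05 for Ccnb2, 1.31 ± 0.15 with adjusted p = 1.91e-06 for Birc5 and 0.89 ± 0.14 with adjusted p = 6.79e-05 for Mcm6). Ccnd2, cyclin D2, averaged 10.2 ± 1.47 CPM in ATM and 36.5 ± 21.1 CPM in KC and was lower in ATM. Within the hfd names 6 of the 29 were higher and 2 lower, against 23 and 1 within the hf names. The list summed to 1231 ± 148 CPM in ATM, against 1014, 1089, 663, 779 and 785 CPM in KC. The sums in the reference groups lay near that of ATM, at 1248 ± 27.1 CPM in STD KC and 1184 ± 126 CPM in Cx3cr1pos HFD.

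Immediate early genes, which are induced within minutes and also by tissue dissociation, were higher in 11 and lower in 2 of 20 in ATM. Egr2 averaged 239 ± 60.6 CPM in ATM and 34.7 ± 15.3 CPM in KC. Ier3 averaged 449 ± 47.9 CPM in ATM and 113 ± 47.6 CPM in KC. Atf3 averaged 596 ± 142 CPM in ATM and 154 ± 74.9 CPM in KC. Fosb, which pairs with JUN proteins, averaged 466 ± 159 CPM in ATM and 113 ± 53.03 CPM in KC (log2 fold change 2.78 ± 0.30 with adjusted p = 8.84e-07 for Egr2, 1.99 ± 0.26 with adjusted p = 6.21e-06 for Ier3, 1.96 ± 0.27 with adjusted p = 1.12e-05 for Atf3 and 2.04 ± 0.31 with adjusted p = 4.14e-05 for Fosb). The list summed to 9672, 12780, 10590, 10350 and 10210 CPM in ATM, against 3055, 5610, 4762, 5374 and 9299 CPM in KC. KC hf3 lay just under the lowest ATM library. The heat shock gene Hspa1a was lower in ATM, at 7.92 ± 5.22 CPM in ATM and 17.4 ± 5.68 CPM in KC, as was its near copy Hspa1b, at 1.09 ± 0.265 CPM in ATM and 2.86 ± 1.32 CPM in KC. The call of Hspa1a was lost without ATM hf1 or ATM hf2, with an adjusted p of 0.0510 or 0.0520. Genes such as Tnf, Cxcl1 and Cxcl2 are induced by the same handling, and its part in their rise was not tested. Of 15 endoplasmic reticulum stress genes 3 were higher and 3 lower, and 5 were lower without ATM hf1 and 1 without ATM hf2. Atf4 averaged 144 ± 13.1 CPM in ATM and 89.2 ± 15.02 CPM in KC. Canx, a folding chaperone, averaged 751 ± 91.9 CPM in ATM and 1008 ± 122 CPM in KC.

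Markers of immune cells other than macrophages were mixed. Of 16 T and NK cell genes 7 were lower and 1 was higher, or 2 without KC hf3. The 1 was Il7r, the IL-7 receptor, at 137 ± 26.9 CPM in ATM and 5.50 ± 5.39 CPM in KC (log2 fold change 4.63 ± 0.52, adjusted p = 1.39e-06). Of 11 B and plasma cell genes 3 were lower and 1 higher, and 1 was lower without KC hf2, KC hf3, ATM hf1 or ATM hf3. The higher 1 was Ighm, at 792 ± 334 CPM in ATM and 329 ± 95.8 CPM in KC. Its groups overlapped, and its call was lost without any 1 of 7 libraries, with an adjusted p up to 0.100. Of 9 neutrophil markers 3 were higher and 2 lower, and 0 and 2 without ATM hf1. Csf3r, the G-CSF receptor, averaged 34.5 ± 8.14 CPM in ATM and 104 ± 22.4 CPM in KC. Of 7 eosinophil, basophil and mast cell markers 2 were higher and 2 lower, and 1 was higher without any 1 of 5 libraries. Cpa3, a mast cell protease, averaged 7.69 ± 4.69 CPM in ATM and 0.302 ± 0.324 CPM in KC. All 6 erythroid genes tested were lower in ATM, with the hemoglobin gene Hbb-bs at 2.95 ± 1.91 CPM in ATM and 19.5 ± 14.4 CPM in KC.

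Of 10 capillary endothelial markers 8 were lower and 2 higher in ATM. Fabp4, which capillaries, adipocytes and macrophages share, averaged 359.6 ± 86.5 CPM in ATM and 86.3 ± 58.7 CPM in KC. Pecam1 averaged 16.2 ± 6.04 CPM in ATM and 274 ± 129 CPM in KC. Of 10 hepatic stellate markers 7 were lower and 1, Dcn, was higher, and Hgf averaged 14.9 ± 5.13 CPM in ATM and 26.3 ± 6.31 CPM in KC. Of 4 cholangiocyte markers 2 were higher, Spp1 and Sox9, and Sox9 lost its call without any 1 of 6 libraries. Of 7 mesothelial markers 1 was higher, Msln at 1.20 ± 0.520 CPM in ATM and 0.330 ± 0.245 CPM in KC, or 2 without KC hfd1. The 1 lower mesothelial marker was not called without any 1 of 5 libraries.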

How the data were processed

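RNA of sorted cells was amplified with the SMARTer chemistry and read from 1 end over 50 bases on a HiSeq, per the labels' protocols. The submitters' processing notes name bcl2fastq, STAR 2.0.4b and Subread featureCounts 1.4.5. The genome build and strand setting are not given in the sources used here. The deposited values are raw read counts per gene, whole numbers in all 17 columns (40824 lines, 40548 genes after 276 repeated identifiers were left out). Unique molecular indexes are named without saying whether reads were collapsed by them.

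Counts were fitted in edgeR 4.0.16 (R 4.3.3) with TMM factors, filterByExpr, 1 coefficient per group over 17 libraries and the quasi-likelihood F-test. P-values are two-sided with Benjamini-Hochberg adjustment over 15285 genes, and the threshold was 0.05. SE is the absolute log2 fold change over the square root of F. Tables were made in Python 3.11.15 with pandas 2.3.3, and the fits were tested on simulated data. Alternatives were DESeq2 1.42.0, other scalings, no filter, other sample sets, a name-prefix term, a block by library name and leaving out each library.

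Members, gene lists (37 programmes and 16 sets of cell markers) and the comparison were chosen with earlier results of these data known. The naming rule takes the genes of the sort and the 12 largest rises and falls with at least 50 CPM in the higher group, no overlap and a call without any single library, leaving out members of the marker lists other than pan-macrophage, immunoglobulin and T cell receptor genes, pseudogenes and genes with only a model name. From each programme list it takes up to 4 higher and 4 lower members with the smallest adjusted p, from each marker list up to 3 members with the highest mean CPM, and members of the Kupffer cell identity and lipid-associated lists that were not called. Not every such gene is printed, and genes outside the rule are marked as chosen after their values were seen. Gene lengths were not used, so levels of different genes were not compared.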

Additional observations from a re-analysis of the deposited data

Results flagged for a closer look

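For 240 genes named here, the 5 libraries of each group were examined for 1 library far from the other 4, where the gap to its nearest neighbour exceeded 0.71 of the group's range. Of 479 gene and group pairs 38 (7.93%) met this. About 1 in 20 would meet it if values were normally distributed. CPM were taken without logs and need not have that shape, and genes vary together, so the share is not read as an excess. No explanation was tested. Values are CPM.

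ATM hf1 stood apart for 12 genes. It was highest for Ccl9 at 2428 (the others covered 923 to 1312) and for Ccr1 at 204 (36.5 to 70.3), a chemokine and a chemokine receptor. Fc receptor family genes were high there too, Fcgr2b at 711 (182 to 287) and Fcrls at 528 (286 to 328), as was the cytokine receptor gene Csf2rb at 176 (118 to 134). Of genes induced by heme, metals or oxidants, Hmox1 stood at 1104 (451 to 564), Mt1 at 1023 (519 to 589) and Mt2 at 176 (63.2 to 76.9). The zinc transporter gene Slc39a8 stood at 4.58 (1.70 to 2.29), Timp1 at 55.7 (6.04 to 14.5) and the platelet gene Ppbp at 24.2 (2.68 to 5.22). Scarb1 was lowest there at 63.3 (85.9 to 93.9).

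Of the other ATM libraries, hfd2 was highest for Apoe at 8978 (4045 to 5156), Hbegf at 17.3 (12.6 to 12.9) and the heat shock gene Hspa1a at 16.9 (4.05 to 7.37). ATM hf2 was highest for Clec4b1 at 267 (195 to 215). ATM hf3 was lowest for Cox5a at 56.2 (66.5 to 68.9) and Folr2 at 412 (608 to 681).

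KC hfd2 stood apart for 8 genes, several of them genes of lipid-associated macrophages or osteoclasts. It held Gpnmb at 1585 (124 to 389), Spp1 at 111 (10 to 21.7), Ctsk at 22.1 (1.30 to 6.02) and Atp6v0d2 at 143 (14.5 to 46.1). It also held Pparg at 71.1 (24.1 to 33.0), Ccl9 at 262 (79.4 to 112), Fam198b at 7.66 (0.359 to 2.41) and Slc9a4 at 3.63 (0.0829 to 0.460).

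KC hfd1 was highest for Adgre1 at 7015 (4086 to 4715), the albumin gene Alb at 232 (43.5 to 91.1), Serping1 at 18.7 (5.49 to 7.95), Ppbp at 10.1 (0.690 to 3.33) and Hsd17b7 at 4.92 (2.60 to 3.15). KC hf3 was highest for the chemokine genes Cxcl1 at 257 (14 to 54.4), Cxcl2 at 957 (99.1 to 302) and Ccl4 at 387 (161 to 213), and lowest for Ifnar2 at 109 (128 to 133). KC hf1 was highest for Gsr at 121 (52.3 to 69.7) and Pycard at 90.8 (46.1 to 56.6), and KC hf2 for Clec1b at 1217 (880 to 972).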

How the results depend on the processing

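Of 7496 genes called between ATM and KC, none was called in the opposite direction under any of 21 alternatives. DESeq2 called 7816 of 15259 genes, and leaving out 1 library at a time gave 6991 to 7343 calls. The count was 4597 within the names hfd (2 against 2 libraries) and 4351 with a 2-fold minimum. With library totals in place of TMM factors the median of all genes was 0.0916 on the log2 scale, and 55.6% of calls were higher in ATM, against 48.6%. The count for the difference between hf and hfd names was 0 to 9 when 1 library was left out.

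Of all 7496 called genes, 4475 were also called in the same direction within the names hfd. The naming rule favoured genes with a small adjusted p or a large and stable change, so shares of named genes do not stand for all called genes. Of 233 called genes named here, 208 kept their call and direction in all alternatives that tested them, and the other 25 lost only the call. Losses were most frequent within the names hfd (19 genes), without both KC hfd1 and hf3 (13) and with the frac_neg libraries of KC alone (11). A change of sign was seen in 4 genes that were not called. As log2 fold changes, Ctsb was 0.0222 with library totals and -0.153 to 0.0487 without 1 library. Ctsd was 0.0192 in DESeq2, 0.0192 with RLE factors, 0.0876 with library totals, 0.0260 with only the 10 libraries, 0.00993 with a prefix term, 0.0780 with the block by name, 0.129 within the names hf and -0.114 to 0.145 without 1 library. Mmp12 was 0.0307 with library totals, 0.0621 with the block, 0.0379 within hfd, 0.0841 with frac_neg KC alone and -0.191 to 0.108 without 1 library. Ppbp was -1.05 within hfd and -0.0116 to 1.98 without 1 library. The causes were not tested.

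Library names are shared between the groups, but deviations of same-named libraries correlated by 0.0352 to 0.235, and hf3 did not correlate best with its own name, so the names were not taken as pairs. The other 4 did, a hint of pairing from the data and not from the design. The replicate block gave 7266 calls for ATM against KC and 0 for the difference between names.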

Other observations

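Genes outside the lists, chosen after their values were seen, also separated the groups. Lgals1, the galectin-1 gene, stood at 968, 978, 1202, 1208 and 1029 CPM in ATM, against 34.6, 60.8, 13.8, 20.1 and 43.9 CPM in KC. Ahnak, which encodes a giant scaffold protein, stood at 391, 459, 369, 512 and 854 CPM in ATM, against 23.9, 16, 12.5, 12.1 and 33.2 CPM in KC. Mgl2, the CD301b gene, stood at 66.6, 113, 136, 129.9 and 95.7 CPM in ATM, against 3.10, 1.01, 0.774, 0.408 and 4.66 CPM in KC. ATM libraries lay above KC libraries for all 3 genes (log2 fold change 4.96 ± 0.33 with adjusted p = 2.38e-09 for Lgals1, 4.72 ± 0.31 with adjusted p = 2.20e-09 for Ahnak and 5.75 ± 0.50 with adjusted p = 6.89e-08 for Mgl2).

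Fpr1, a receptor for bacterial formyl peptides, stood at 16.2, 3.98, 8.24, 4.10 and 3.93 CPM in ATM, against 998, 464, 965, 669.6 and 731 CPM in KC. Treml4, a receptor for dying cells, stood at 5.70, 4.92, 8.73, 7.95 and 7.89 CPM in ATM, against 1382, 1049.6, 1200, 1438 and 927 CPM in KC. Ly6e, a surface protein induced by interferon, stood at 185, 174, 127, 190.2 and 106 CPM in ATM, against 3853, 3622, 4181, 4184 and 3454 CPM in KC. All 3 were lower in every ATM library than in any KC library (log2 fold change -6.72 ± 0.42 with adjusted p = 1.22e-09 for Fpr1, -7.41 ± 0.21 with adjusted p = 1.54e-13 for Treml4 and -4.62 ± 0.16 with adjusted p = 1.14e-12 for Ly6e). F8, the coagulation factor gene of endothelium, stood at 0.525, 0.878, 0.916, 0.655 and 0.827 CPM in ATM, against 149.7, 73.03, 36.5, 26.7 and 159 CPM in KC. In KC it was highest in hf3 and hfd1, the libraries with the highest endothelial sums.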
